A study of Drosophila melanogaster with 4 samples.

Results

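The regions described here are those called as enriched for HP1c on chromosome arm 3L of Drosophila melanogaster, in nuclei of adult heads. They were chosen by position alone. A region of the combined list of both replicates was a member if it was named as enriched, lay on 3L and had its midpoint outside the centromere-proximal 2 Mb of the 24543557 bp arm. Positions are on FlyBase release 5 and refer to 3L throughout. This rule gave 1301 members of the 7116 enriched regions in the combined list. The same interval of 22.5 Mb held 1098 of 6008 enriched regions in replicate 1 and 1087 of 5764 in replicate 2. The last member inside the limit ran from 22399965 to 22402488 with a score of 2.69. The first region outside it ran from 22634650 to 22636228, scored 0.141 and met no region of either replicate. The rule left out 40 regions of the combined list.

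All 4 libraries came from the wild-type strain Oregon-R-modENCODE at the stage labelled Mixed Adult, raised in population cages, and heads were separated from whole flies on sieves. This material gave 2 HP1c ChIP libraries and 2 input libraries of genomic DNA, of which each is the control of the ChIP library with its number. The labels of all 4 libraries carry MO 462, whose meaning is not spelled out there. All samples used here share this genotype and no treatment is named, and head tissue cannot be checked from lists of regions. Nothing in the labels tells whether each replicate was a fresh collection of flies, so an SD over them may be technical.

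HP1c belongs to the heterochromatin protein 1 family, whose members carry a chromodomain that can bind methylated histone H3 and a chromoshadow domain through which they pair and meet partners. Its relative HP1a is known for pericentric heterochromatin. HP1c is known in Drosophila mainly from euchromatin, where it forms a complex with the zinc-finger proteins WOC and ROW and is found near the starts of active genes. The arm 3L is mostly euchromatin outside its centromere-proximal end.

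HP1c regions were spread along the whole interval as short, separate stretches. There were 48.7 regions per Mb in the first library and 48.2 in the second, which average 48.5 ± 0.345 (SD, n = 2). They covered 12.4% and 12.1% of the interval, on average 12.3% ± 0.241 (SD, n = 2). The libraries therefore differed by little in the number and extent of their regions on this arm. Median widths were 2256.5 bp and 2228 bp in replicates 1 and 2, and the middle 50% of widths ran from 1972 to 2748 bp and from 1966 to 2678 bp. The combined list covered 14.5% of the interval with a median width of 2229 bp. The score is the authors' own value for each region, above 0 for enrichment, and neither labels nor headers state its scale. Its median on 3L was 0.896 in replicate 1, 0.986 in replicate 2 and 0.681 in the combined list. Depth is unknown, since the lists hold no read counts.

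The strongest members were mostly about 2.5 kb wide and lay at scattered places along the arm. The first ran from 15974845 to 15977342, over 2498 bp, and scored 4.52 in replicate 1, 4.47 in replicate 2 and 4.48 in the combined list. It ranked 3 among all regions of replicate 1 and 1 in replicate 2. The second, from 21720574 to 21723069, scored 4.40 in replicate 1 and 4.25 in replicate 2. These 2 members stood near the top of both libraries, with SDs of 0.0341 and 0.106 between the replicate scores. The third, from 16579209 to 16582769, scored 4.24 and 4.05, and the fourth, from 2261554 to 2264008, scored 4.09 and 4.18. The fifth, from 5131304 to 5133774, scored 3.96 in replicate 1 and 4.29 in replicate 2. In these 5 the order of the replicates varied, replicate 1 being higher in the first 3 and replicate 2 in the other 2.

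The next 5 members by score included both that differed most between libraries. Those from 21425169 to 21427884, from 539445 to 541961 and from 1557339 to 1559840 had combined scores of 3.77, 3.77 and 3.68, with SDs of 0.0403, 0.0435 and 0.0733 between replicates. The member from 20294137 to 20296646 scored 3.47 in replicate 1 and 4.02 in replicate 2. The tenth, from 13505075 to 13507605, scored 3.21 and 3.99, and its rank fell at 140 in replicate 1 and 38 in replicate 2. In both of these replicate 2 was the higher library. Of these 10, 9 were between 2455 and 2716 bp wide, and only the third was wider, at 3561 bp. Each met exactly 1 region in each replicate. The distance to the nearest other member ran from 15 bp to 24184 bp, so the strongest members were found both beside other members and alone.

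**Figure D1:**
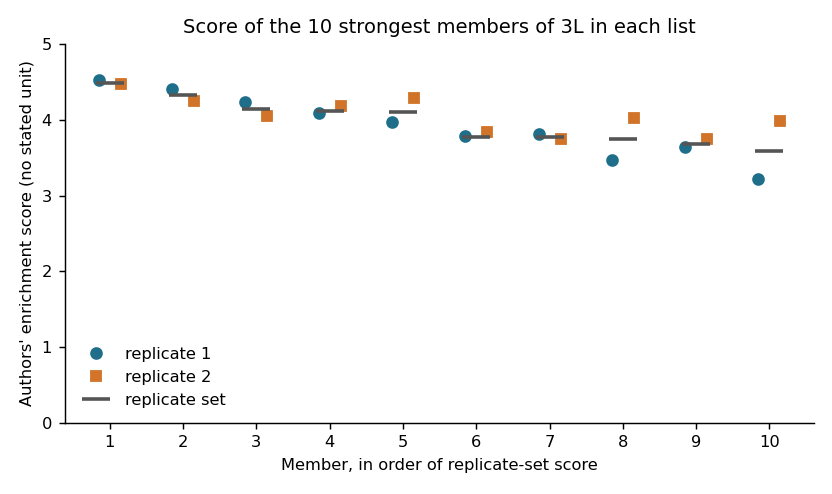
Authors' enrichment score (vertical axis, no stated unit) of the 10 highest-scoring members that met a region in both replicates, in order of combined score, with circles for replicate 1, squares for replicate 2 and bars for the combined list (replicate set). The libraries lie close for the first 4 members, and replicate 2 lies above replicate 1 at positions 8 (4.02 against 3.47) and 10 (3.99 against 3.21).

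Most members were present in both libraries. A region of each replicate overlapped 952 of the 1301 members by at least 1 bp, or 73.2% (exact 95% interval 70.7 to 75.6). That interval covers only the number of regions and treats them as independent, although they share the same libraries. Over all sequences the share was 71.3%, near the share on 3L. Replicate 1 alone held 122 members (9.38%, against 10.6% over all sequences) and replicate 2 alone held 104 (7.99%, against 7.28%). Neither held 123 (9.45%, against 10.8%), so these shares too lay near those of the whole list. The combined list was made from the same libraries, so these overlaps follow in part from how it was made. Between the replicates themselves, 968 of the 1098 regions of replicate 1 (88.2%) met a region of replicate 2, against 86.5% over all sequences. In the other direction 971 of 1087 (89.3%) met a region of replicate 1, against 90.1% over all sequences. The shares on 3L lay within 2 percentage points of those of the whole lists in both directions.

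Presence in both libraries went with the combined score, on 3L as over all sequences. That score comes from the same 2 libraries, so the relation follows in part from how the combined list was made. When members were put into 4 equal groups by combined score, both replicates held 26.4% of the lowest group, 67.4% of the second, 99.1% of the third and 100% of the highest. Within the same score limits both replicates held 316 of 1508 regions over all sequences in the lowest group, and 58.5%, 96.6% and 99.1% in the others. All 325 members of the highest group on 3L, which begins at a score of 1.46, were thus held by both. The members held by both had a median score of 1.07 and a median width of 2453 bp. Those of replicate 1 alone had a median score of 0.255 and a width of 1720.5 bp, and those of replicate 2 alone had 0.263 and 1707 bp. The members found in 1 library were therefore weak and narrow in the combined list, whichever library held them. The highest among them lay in replicate 2 alone, from 11985232 to 11987357, and scored 1.20 in the combined list and 2.05 in replicate 2. The highest of replicate 1 alone, from 865420 to 866911, scored 0.527 in the combined list and 0.786 in replicate 1. All 417 members that scored above 1.20 were held by both libraries.

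Members that neither library held were the narrowest of the 4 classes. Their median width was 1228 bp, and 75 of the 123 were narrower than 1302 bp, the narrowest region of either replicate on 3L. The combined list held 97 members below that width in all. The 123 members in neither had a median score of 0.307, above that of members held by 1 library. The 3 highest were from 9263533 to 9264551 with a score of 1.18, from 21478181 to 21479291 with 0.900, and from 1378930 to 1379978 with 0.547. These 3 were 1019, 1111 and 1049 bp wide. The second lay 25 bp from its nearest member and the first 1824 bp, whereas the third stood 25601 bp from any other.

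Wider regions had higher median scores. Below 2 kb, from 2 to 3 kb and from 3 kb up, the median score was 0.404, 1.10 and 1.45 in replicate 1. In replicate 2 it was 0.382, 1.29 and 1.71 over the same classes. Across all members Spearman's rho was 0.774, and in the replicates it was 0.752 and 0.789 (n = 1098 and 1087 regions, which share a library and are not independent). Among regions of 2 to 3 kb, rho was 0.542 in replicate 1 and 0.657 in replicate 2. Among regions of 3 kb or more it was 0.0515 and 0.175, and among regions under 2 kb it was 0.0564 and 0.251. Within classes the correlation was thus largest among regions of 2 to 3 kb, in both libraries, over a narrow range of widths in each. These width limits were chosen after the values were seen. The scores of regions under 2 kb reached only 0.905 in replicate 1 and 0.780 in replicate 2, while those of 2 to 3 kb reached 4.52 and 4.47. In the 10% of regions with the highest scores, widths had medians of 2683 bp and 2590 bp in replicates 1 and 2, and none was narrower than 2217 bp and 2290 bp. Of the 60 members of 5 kb or more, 12 were among the 130 members with the highest scores on 3L. The 60 made up 4.61% of all members, so they were more common among those 130 than among all. The regions with the highest scores were thus mostly of intermediate width, although broad regions had the higher median. Members of 2 to 3 kb were also 47.1% of all members.

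**Figure D2:**
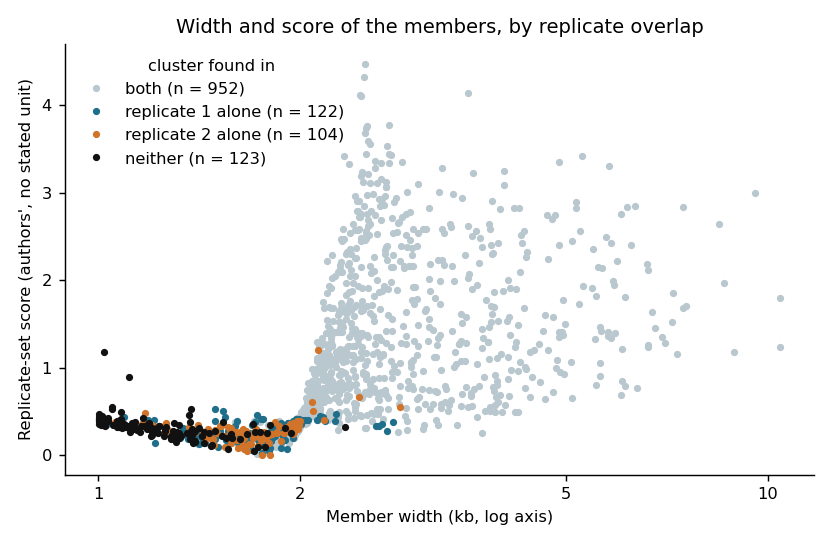
Width (horizontal axis, kb, logarithmic) against combined score (vertical axis, no stated unit) of all 1301 members, coloured by whether a region was found in both replicates (952), in replicate 1 alone (122), in replicate 2 alone (104) or in neither (123). Members found in neither sit at the narrow end, down to 1001 bp, and the highest scores stand in a steep front between 2 and 3 kb.

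Broad members were few. There were 60 members of 5 kb or more, or 4.61% of members against 6.28% of the combined list over all sequences. In that list the share was 4.22% on 2R, 4.31% on 3R, 5.42% on 2L and 9.07% on X, each without its centromere-proximal 2 Mb. A share under that of the whole list was thus not particular to 3L. Both replicates met all 60 of them, as they did all 447 such regions over all sequences. The 60 made up 11.7% of the base pairs covered by members. Their scores ran from 0.653 to 3.42, with a median of 1.76. In 38 of them each replicate held 1 region, while replicate 1 held 2 or more regions in 14 and replicate 2 in 15. The widest member ran from 695863 to 706303, over 10441 bp, and scored 1.24. Replicate 1 held it as 1 region of 10372 bp, and replicate 2 as regions of 2120 and 8141 bp. The next, from 16037877 to 16048292, scored 1.80 and was also split only in replicate 2, into 8325 and 1764 bp. The third, from 9411615 to 9421193, was split only in replicate 1. There its right part, of 2924 bp, scored 4.16 and ranked 10 in that library, while its left part, of 5796 bp, scored 1.99. Replicate 2 held the same stretch as 1 region of 9533 bp with a score of 3.00. The libraries thus differed in both the edges and the score of this stretch.

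Scores of overlapping regions ran in parallel between the libraries. Over 968 pairs on 3L, rank correlation (Spearman's rho) reached 0.890 and Pearson's r reached 0.909, beside 0.878 and 0.898 over the 5194 pairs of all sequences. Pairs are places on the same chromosomes measured in the same 2 libraries, so no p is given. In the 931 pairs in which each region met exactly 1 partner, the median shift was 67 bp at the start and 58 bp at the end, and in 44.3% both edges lay within 100 bp. Of these 931, 566 scored higher in replicate 2, or 60.8%. The excess was found in the upper score groups. In the highest of the 4 score groups, 248 of 314 members with 1 region in each library scored higher in replicate 2, with medians of 2.08 in replicate 1 and 2.49 in replicate 2. In the lowest group 34 of 85 did so, with medians of 0.369 and 0.322. The combined score lay between both replicate scores in 699 of 920 such members, below both in 220 and above both in 1.

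**Figure D3:**
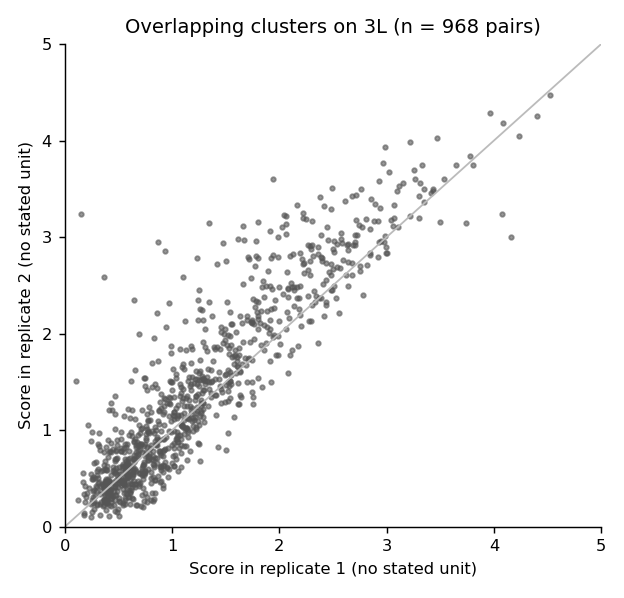
Score in replicate 1 (horizontal axis) against score in replicate 2 (vertical axis) for the 968 pairs of overlapping regions on 3L, without a stated unit, with the line of equal scores. Points scatter around the line at low scores and lie mostly above it at high scores, and 566 of the 931 pairs with a single partner on each side were higher in replicate 2.

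The libraries gave a few places unlike standing. By the rule for named regions, the 3 members with the largest difference in score percentile, the place of a score within its whole list, were from 16601435 to 16607071, from 16774526 to 16777046 and from 12463713 to 12465838. In the first, each library held 2 regions and the best overlap picked a different one in each. The right one, near 16604365 to 16606848, scored 1.42 in replicate 1 and 2.72 in replicate 2, and the left one 0.474 and 0.331. In the second, replicate 1 held a region of 5348 bp that reached beyond the member, with a score of 1.94, and replicate 2 a region of 1898 bp with 0.479. These 2 differences thus came with unlike region edges. The third was matched region to region, with a score of 0.110 in replicate 1 and 1.51 in replicate 2, or percentiles of 0.208 and 62.0. Among the 913 members matched 1 to 1 in all 3 lists it was the only one apart by more than 50 points, and the median difference was 7.26 points. The next 2 of these, named after their values were seen, ran from 21671852 to 21674156 (scores 0.649 and 2.35) and from 6961065 to 6963798 (0.872 and 2.95). In all 3 matched members replicate 2 was the higher library.

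Density changed along the arm, and the libraries changed alike. Over 22 bins of 1 Mb counted from the distal end, replicate 1 held 26 to 68 regions a bin and replicate 2 held 28 to 72. Pearson's r between the libraries was 0.914 and Spearman's rho 0.882 over the 22 bins, which are neighbours on 1 arm and are given as a description. The densest bin, from 11000001 to 12000000, held 68 regions in replicate 1 and 72 in replicate 2. The second by the mean of both libraries, from 16000001 to 17000000, held 58 and 68, which was the largest difference between the libraries in any bin. In replicate 1 alone 5 other bins besides the densest held more than 58. The sparsest bin, from 13000001 to 14000000, held 26 and 28, and the bin after it, from 14000001 to 15000000, held 35 and 36. Dense and sparse bins thus lay within a few Mb of each other, with no steady rise or fall toward the centromere.

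Density and score did not run together over these bins. Spearman's rho between the number of members in a bin and their median score was -0.0458 over the 22 bins. The densest bin held 80 members, of which 2 were in the highest-scoring 10% of the whole combined list, and its highest score was 2.65. The sparsest held 33 members, of which 9 were in that 10%, or 27.3%, with a median score of 1.12, the highest of the 22 bins. The lowest share was in the bin from 7000001 to 8000000, with 1 of 58 members. Over the whole interval the share was 10.1%. These bins were compared after their values were seen.

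**Figure D4:**
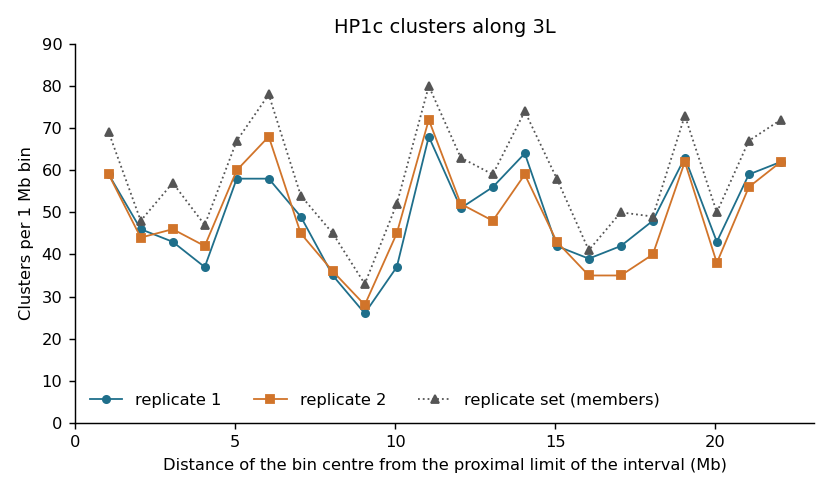
Number of regions per 1 Mb bin (vertical axis) against the distance of the bin centre from the proximal limit of the interval (horizontal axis, Mb), with circles for replicate 1, squares for replicate 2 and triangles for the members in the combined list. Both replicates have their lowest count in the same bin (26 and 28) and their highest in the same bin (68 and 72).

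Members lay singly or in short runs, with long empty stretches between some of them. Neighbours stood a median of 8229 bp apart in replicate 1 against 8249 bp in replicate 2. A neighbour lay within 5 kb of 56.8% of regions in the first library and 59.8% in the second, on average 58.3% ± 2.10 (SD, n = 2). When members with gaps of at most 5 kb were joined, they formed 772 runs, of which 478 held a single member and 23 held 5 or more. Members that stood more than 20 kb from any other had a median score of 0.470, and 59.8% of these 87 were held by both libraries. Those with another member 2 to 5 kb away had a median score of 0.783, and 76.5% of these 311 were held by both. Over all sequences these shares were 58.4% and 75.1%, with median scores of 0.542 and 0.834. Both values were thus lower for lone members than for members at 2 to 5 kb, on 3L as in the whole list. This difference was not tested. The class at 2 to 5 kb had the highest values of all distance classes on 3L. Members within 500 bp of another had 0.738 and 73.8%. Those further off but within 2 kb had 0.763 and 76.45%, and those at 5 to 20 kb had 0.568 and 70.3%. Lone members were lowest on both values, but the values did not fall steadily with distance.

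The 3 longest runs differed in strength. The run from 9411615 to 9462920 held 8 members over 51306 bp, of which 71.0% was covered, and its scores ran from 0.761 to 3.09. All 8 were held by both libraries. A run from 19064644 to 19097339 also held 8 members, but only 4 were held by both. Those 4 were neighbours, with combined scores of 2.59, 2.16, 1.46 and 0.434. The other 4 scored between 0.256 and 0.382, with 2 in replicate 1 alone, 1 in replicate 2 alone and 1 in neither. The third, from 3795279 to 3827882, held 7 members with a median score of 1.59, all held by both libraries. Its first member was weak, with a combined score of 0.151. Another run, from 7843220 to 7871576, also held 7 members, over a shorter stretch. Its median score was 0.268, and only 3 of its members were held by both. Weak members at the flanks thus lengthened the second run, while the other two were held whole by both libraries.

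The longest stretch without a member ran from 13507606 to 13858844, over 351239 bp, and neither library held a region in it. It lay in the sparsest bin and began at the end of the tenth strongest member, which scored 3.59. The member on its other side scored 0.492. The next stretch, from 20535781 to 20711279, was 175499 bp long and held 1 region of replicate 1, with a score of 0.455, and none of replicate 2. The third, from 12566713 to 12726623, was 159911 bp long and held none in either. Of the 3 stretches only the second thus held a region in either library. Whether reads can be placed in these stretches was not tested.

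Beside the other large arms, each without its centromere-proximal 2 Mb, 3L lay in the middle by density. Its 48.5 ± 0.345 regions per Mb stood below X (61.5 ± 1.80) and 2R (51.4 ± 2.18) and above 3R (44.4 ± 2.13) and 2L (44.0 ± 1.11; SD, n = 2 for each). The replicate values of 3L overlapped those of none of these arms, although the nearest, 2R, was higher by only 4.25 regions per Mb in replicate 1 and 1.66 in replicate 2. By covered length the order was X with 17.2%, 2R with 13.2%, 3L with 12.3%, 2L with 11.6% and 3R with 11.5%. All arms were measured in the same 2 libraries, and an exact permutation test over 2 libraries cannot give a two-sided p under 0.5. No other test of these differences was run.

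Regions of 3L stood slightly lower in score. Their median score percentile within the whole list was 47.3 in replicate 1 and 44.7 in replicate 2, the lowest of the 5 arms in each, although 2R was within 0.1 points of it in replicate 1 at 47.4. The 25% of regions with the highest scores took in 22.7% of the regions of 3L in replicate 1 and 22.5% in replicate 2. The 10% with the highest scores took in 9.74% and 9.57%. Scores of 3 or more were on 3L in 36 of 218 regions of replicate 1 (16.5%, against 18.3% of the whole list) and 76 of 449 of replicate 2 (16.9%, against 18.9%). Of the 100 highest scores, 20 lay on 3L in replicate 1 and 14 in replicate 2. Of the 10 highest, 4 lay on 3L in replicate 1 and 1 in replicate 2. In the replicates, the shares of 3L among high scores were thus mostly below its share of the list. The exceptions were the 10 and the 100 highest of replicate 1. In the combined list, of which members made up 18.3%, they held 4 of the 10 highest scores and 14 of the 100 highest. Its highest-scoring 10% took in 10.1% of members. The number of regions in replicate 2 was 0.990 times that in replicate 1 on 3L, whereas it ran from 0.934 on 3R to 0.965 on 2L among the other arms. With nearly equal numbers, the overlap of 3L was nearly equal in both directions, with 88.2% and 89.3%, beside 85.4% and 91.6% on 3R. The median width on 3L was 2242 ± 20.2 bp, beside means from 2264 bp on 2L to 2295 bp on 3R among the others. The replicate values of 3L and 2L overlapped, with 2256.5 bp on 3L and 2254 bp on 2L in replicate 1.

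**Figure D5:**
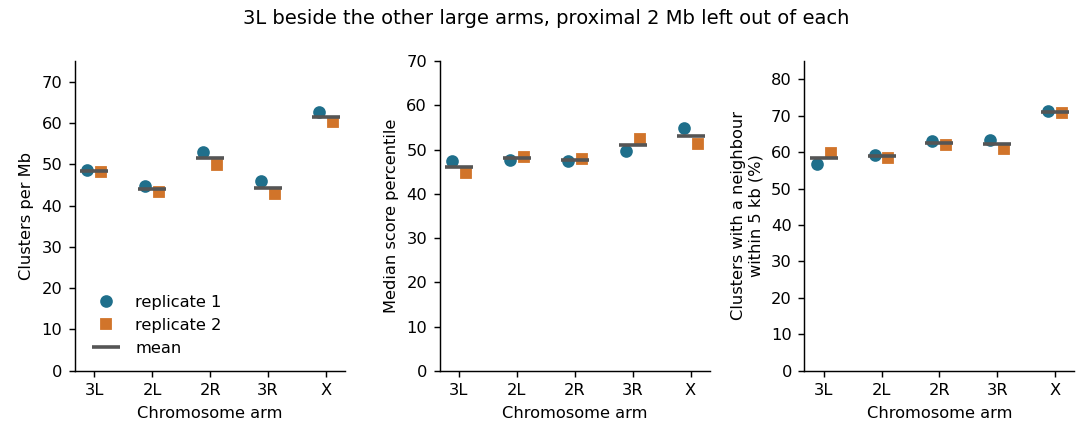
Regions per Mb (left), median score percentile within the whole list (middle) and percentage of regions with a neighbour within 5 kb (right) for 3L and the other large arms, with circles for replicate 1, squares for replicate 2 and bars for their mean. On 3L the density is 48.7 and 48.2, the percentile 47.3 and 44.7, and the share with a near neighbour 56.8% and 59.8%. That share is 71.4% and 70.9% on X, and 59.2% and 58.4% on 2L, whose values overlap those of 3L.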

How the data were processed

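HP1c was measured by ChIP-seq in 2 ChIP and 2 input libraries. The submitters' processing notes name Bowtie 0.12.7 as aligner. The genome is FlyBase release 5 and arm lengths are stated, per the file headers, and region starts and ends are used as deposited. Each region carries a score deposited by the authors. Caller, threshold and the method of combining both replicates are not stated in the labels or headers. Inputs entered only as the authors' controls. No genome or annotation of release 5 was used here, so regions are named by position, without genes or sequence.

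Regions were assigned to 3L by midpoint. Overlap meant at least 1 bp, pairs took the partner with the largest overlap, and gaps ran edge to edge. The named regions were the 10 strongest held by both replicates, the 3 widest, the strongest held by 1 or neither replicate, those with the most unlike percentiles, and the extreme runs, gaps and bins. Members and lists were chosen with earlier results of these data known. The share of members met in both replicates carries an exact (Clopper-Pearson) 95% interval. No test between arms was run. Alternatives were stricter score limits, larger overlaps, merging within 500 bp, other distances and bins, the whole arm, and 1 replicate at a time. The functions were tested on simulated data. Computation used Python 3.11.15 with pandas 2.3.3 and numpy 2.4.6, exact intervals scipy 1.17.1, and figures matplotlib 3.10.9.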

Additional observations from a re-analysis of the deposited data

Results flagged for a closer look

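The combined list names 4 regions on 3L as depleted, of 15 in all, and the rule left them out of the members. They drew attention because they are a signal outside every comparison made here. They were 26.7% of the depleted regions, while 18.3% of the enriched regions of that list were members, and with so few regions no difference is read from this. Neither replicate names a depleted region on 3L. The lowest score, -0.204, belonged to the region from 12734085 to 12735762, and the others, from 8593251 to 8594979, from 15627081 to 15628695 and from 20175778 to 20177477, scored -0.000673, -0.0184 and -0.0158. Each of the 4 overlapped a region that at least 1 replicate names as enriched. The one starting at 8593251 met a region of replicate 1 with a score of 0.155. Those starting at 12734085 and 15627081 met regions of replicate 2 with 0.130 and 0.265. The one starting at 20175778 met an enriched region in both, with 0.178 in replicate 1 and 0.142 in replicate 2. All of these lay in the lowest 4% of their list, with percentiles from 0.304 to 3.17. The cause of the opposite signs was not tested.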

How the results depend on the processing

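Of 45 alternatives over 9 results, 29 stayed near the main value and 16 moved further. Near meant within the spread between replicates or, for shares and correlations, within the interval or 0.05 of the main value. A mean over 2 replicates always lies within 1 SD of each of them. For density, coverage, width, near neighbours and percentile, leaving out 1 replicate therefore had to count among the 29, and shows no stability. Density went from 48.5 regions per Mb to 22.6 in the upper 50% by score, 11.0 in the upper 25%, 45.6 over the whole arm and 46.0 after merging within 500 bp. Coverage went from 12.3% to 6.91% in the upper 50% and 11.6% over the whole arm. Median width went from 2242 bp to 2595 bp in the upper 50% and 2270 bp after merging. The share with a neighbour within 5 kb went from 58.3% to 42.9% in the upper 50% and 54.0% after merging, and was 35.3% within 2 kb and 78.0% within 10 kb. Density and coverage fall with fewer regions, and the neighbour share rises with the distance, by construction. The whole arm adds a proximal 2 Mb with 27 and 26 regions in the replicates. Overlap between replicates went from 88.7% to 86.3% with reciprocal overlap of 50%, and the score correlation from 0.890 to 0.840 in the upper 50%. A stricter overlap rule cannot raise a shared percentage, and merging cannot raise the number of regions. The share of members met in 1 replicate cannot be below the share met in both. The direction of these changes is thus also by construction. For the changes not named as by construction the cause was not tested. Without each replicate, density ran from 48.2 to 48.7, coverage from 12.1% to 12.4%, width from 2228 to 2256.5 bp, near neighbours from 56.8% to 59.8%, the median percentile from 44.7 to 47.3, and the share of members met from 81.2% to 82.6%, against 73.2% for both. No paired analysis was possible because the inputs have no values here. Depth is unknown.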
